A study of Mus musculus with 6 samples.

Results

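Voltage-gated sodium channels let sodium into neurons when the membrane is depolarized and so start and carry the action potential. Each channel holds a large alpha subunit, which forms the pore, the voltage sensors and the inactivation gate, and smaller beta subunits, which adjust gating, bring channels to the surface and also act as adhesion molecules. In cortical neurons these channels are concentrated at the axon initial segment and at nodes of Ranvier. Of the brain alpha subunit genes, Scn3a (Nav1.3) is known for expression before and around birth, Scn2a (Nav1.2) for expression in unmyelinated and immature axons, Scn8a (Nav1.6) for its later place at initial segments and nodes, and Scn1a (Nav1.1) for its role in fast-spiking interneurons. The messenger RNAs of 7 such genes were examined here: the alpha subunit genes Scn1a, Scn2a, Scn3a and Scn8a and the beta subunit genes Scn2b, Scn3b and Scn4b. They were taken by gene symbol from the 24972 genes of the table, where Scn2a1 is written Scn2a. The rule itself uses no measured value, but the 7 genes were chosen with earlier results of these data known.

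The measurements come from RNA-seq of total RNA from mouse cortex at postnatal day 7 (P7), with 3 WT and 3 Zmiz1-KO libraries. WT mice were Zmiz1f/f, which carry floxed alleles of Zmiz1, and Zmiz1-KO mice were Zmiz1f/f with Emx1Cre, so both groups share the floxed alleles and the deletion is limited to cells in which Emx1 drives Cre, the progenitors of cortical excitatory neurons and glia, and to their progeny. The labels do not say whether each library came from a separate animal, nor give sex or litter, so p-values measure only the spread between these libraries, and 1 label text speaks of isolated progenitors where the others name cortex. Values are the authors' normalized counts.

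Zmiz1 itself stood at 9944, 9779 and 9660 normalized counts in the Zmiz1-KO-labelled libraries against 8119, 7929 and 7461 in WT, which is 0.32 on the log2 scale (adjusted p = 0.00125 in limma). The targeted gene thus goes against its label at the level of the whole gene, and the table does not separate the deleted exons, so groups are named by their labels throughout. Estimated depth was 15486928 to 17848076 reads or read pairs per library, which the values do not tell apart. Markers of excitatory neurons were present in every library and summed to 32507 to 36679 normalized counts in WT and 32481 to 33686 in the Zmiz1-KO-labelled libraries. The interneuron marker Pvalb, known for its late onset in fast-spiking cells, had a mean of only 5.67 normalized counts.

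The 4 alpha subunit genes are paralogs, so how alike their messages are bears on how a read can be told to its gene. Over whole transcripts, the longest run of bases common to 2 of these genes was 188 for Scn1a and Scn2a and 143 for Scn3a with either of them. Scn8a shared no run longer than 55 bases with another of the 4.

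Most stretches of these transcripts belonged to 1 gene alone. Of all 75-base stretches of its transcripts, Scn1a shared 1.88% with another gene, most often Scn2a. Scn2a shared 2.80%, most often with Scn3a, and Scn3a shared 3.85%, most often with Scn9a. Scn8a, Scn2b, Scn3b and Scn4b shared no stretch, and no exon of the 7 genes overlaps an exon of another gene on either strand. On GRCm38, Scn3a (chr2:65457118-65567627, minus strand), Scn2a (chr2:65620771-65767447, plus strand) and Scn1a (chr2:66270778-66440840, minus strand) lie in 1 cluster. Scn8a lies apart at chr15:100869858-101045938 on the plus strand. The beta subunit genes lie on chromosome 9, all on the plus strand, with Scn3b at chr9:40269217-40291618 and Scn2b (chr9:45117782-45130070) next to Scn4b (chr9:45138395-45154152).

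Scn2a has 2 transcription starts in RefSeq (GRCm38.p6), and the 250 bases before each are shown because the table pools both starts in 1 value. Capitals mark the letters TATAAA, matched at any distance from the start, and whether they act as a TATA box was not tested.
Scn2a upstream start, chr2:65620519-65620768, plus strand: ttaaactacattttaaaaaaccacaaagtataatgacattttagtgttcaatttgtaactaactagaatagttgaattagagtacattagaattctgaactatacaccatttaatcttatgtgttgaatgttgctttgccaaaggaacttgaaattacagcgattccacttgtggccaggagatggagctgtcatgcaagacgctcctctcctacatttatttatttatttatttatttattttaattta
Scn2a downstream start, chr2:65668436-65668685, plus strand: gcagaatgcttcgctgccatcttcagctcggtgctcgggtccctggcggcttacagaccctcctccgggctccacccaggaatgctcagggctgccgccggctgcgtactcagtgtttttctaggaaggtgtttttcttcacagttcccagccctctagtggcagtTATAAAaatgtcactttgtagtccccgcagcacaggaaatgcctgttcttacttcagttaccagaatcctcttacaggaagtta
The window before the upstream start held 29.6% G and C and 2 CpG dinucleotides. The window before the downstream start, which lies inside the gene and outside its annotated exons, held 53.2% and 9, against a median of 52.4% G and C over all promoters of this length. RefSeq windows were matched for 5 of the 7 genes (Scn1a, Scn2a, Scn8a, Scn2b and Scn4b), 7 windows in all. On either strand, TATAAA stood in 1 of the 7 windows and in 12.4% of all 32851 promoter windows, and CCAAT in 2 of the 7 and in 33.8% of all. GGGCGG (32.7% of all promoters), TGACGTCA (1.55%) and TGANTCA (6.75%) stood in none of the 7. The matches lay in different windows, TATAAA in the downstream one of Scn2a and CCAAT in those of Scn1a and Scn4b. The windows of Scn1a, Scn2b and Scn4b overlap annotated exons of GENCODE. In that annotation Scn4b starts inside its window, ahead of its CCAAT match, so this match does not lie before the gene.

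Scn3b had by far the highest level per kilobase of exon of the 7 genes. Levels between genes are given as normalized counts per kilobase of the union of a gene's exons, over the 6 libraries. Scn3b, which encodes the beta3 subunit, known for high expression early in development, had a mean of 1772 (1668 to 1861). Scn2a followed among the alpha subunits with 708 (661 to 754), ahead of Scn8a with 498 (482 to 530). Scn2b, which encodes the beta2 subunit that is bound to alpha subunits by a disulfide bond, had 424 (399 to 449). Scn3a had 250 (232 to 280) and Scn1a 165 (155 to 184). Scn4b, whose beta4 subunit is known as the source of resurgent sodium current in some neurons, was lowest with 76.8 (39.0 to 104). The ranges of neighbours in this order did not overlap, so each gene kept its place in every library, and the order was the same with the length of the longest transcript.

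**Figure D1:**
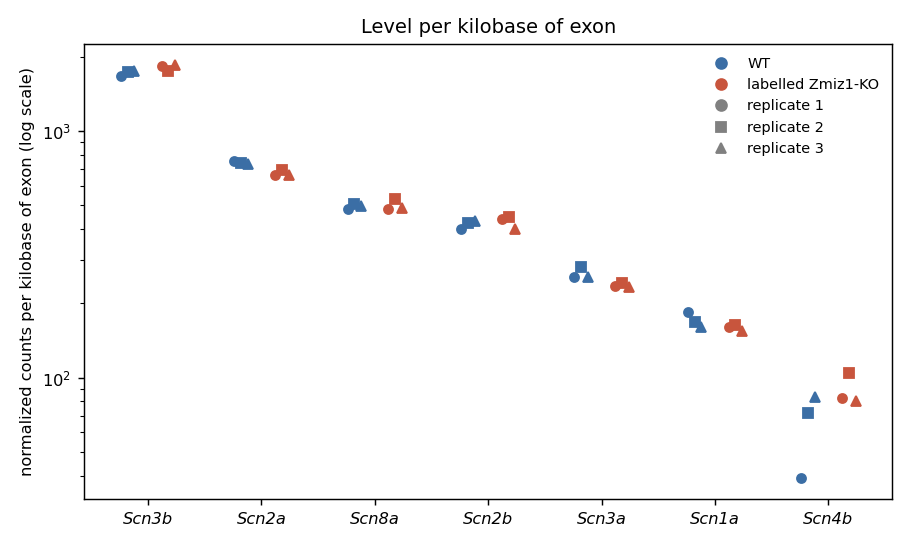
Normalized counts per kilobase of exon on a log axis for the 7 genes in each library, with WT in blue and Zmiz1-KO-labelled libraries in red. The genes run from Scn3b, with a mean of 1772, down to Scn4b, with 76.8, and no library of a gene reaches the range of its neighbour.

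The design asks whether these levels differ between the groups. The Zmiz1-KO-labelled libraries differed from WT by -9.22% for Scn2a and by -10.2% for Scn3a, with no overlap between groups. The levels of Scn1a, Scn8a, Scn2b, Scn3b and Scn4b overlapped between groups, and none of the 7 differences passed the threshold. With limma on log2(value + 1) and Benjamini-Hochberg adjustment over the 15800 tested genes, 0 of the 7 genes had an adjusted p at or under 0.05, against 0.411% of all tested genes, and limma-voom also called 0. At an unadjusted p under 0.05 the count was 2 of 7, against 11.0% of all tested genes. All 7 passed the filter on low values. The median log2 fold change of the 7 was 0.01, with 4 positive and 3 negative, and that of all tested genes was -0.00018. In bulk tissue, fewer cells of a type and less RNA per cell cannot be told apart.

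**Figure D2:**
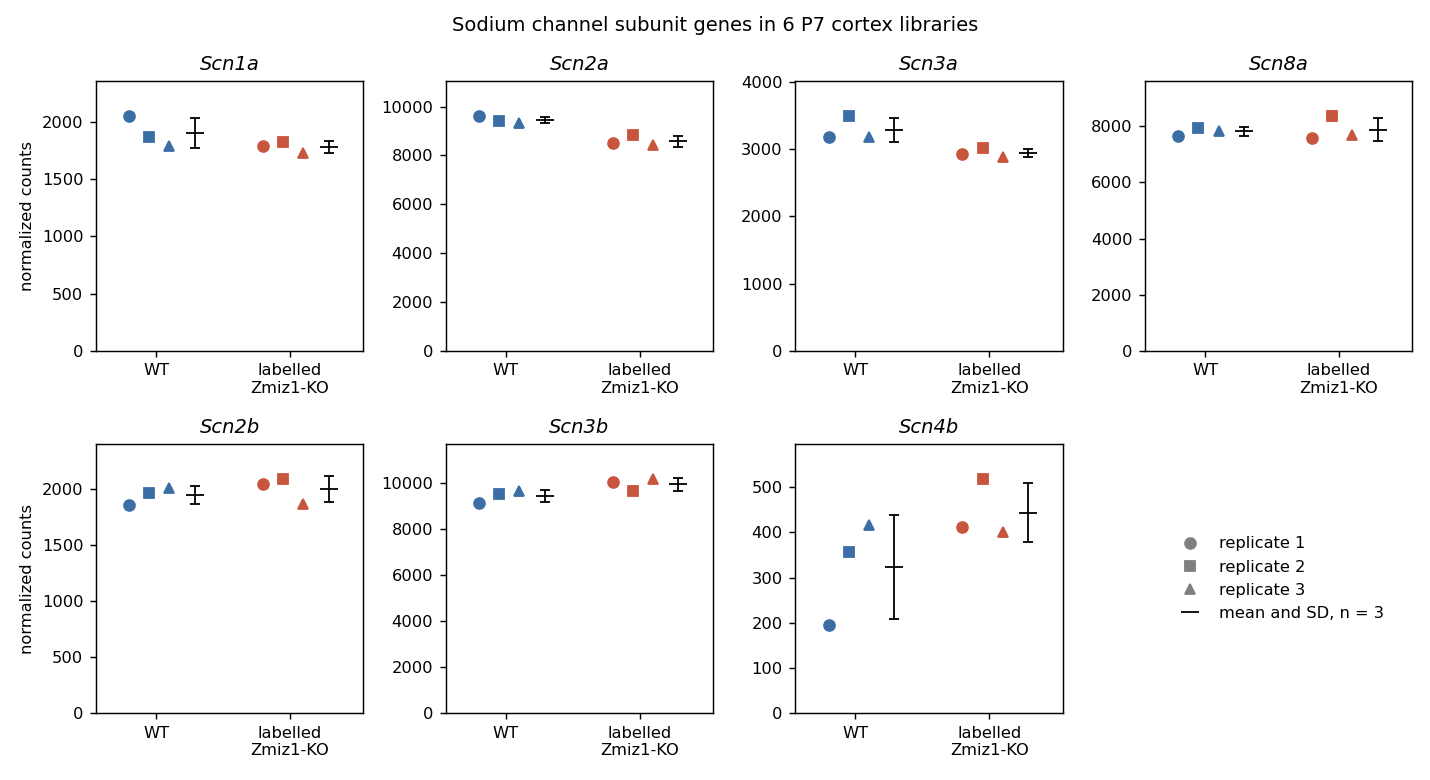
Normalized counts of the 7 genes in each library, on axes that start at 0, with the mean and SD of each group (n = 3). For Scn2a the lowest WT library, at 9345, lies above the highest library labelled Zmiz1-KO, at 8840.5, and for Scn3a 3179 lies above 3014, while the groups overlap for the other 5 genes.

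Scn2a had 9605.5, 9409 and 9345 normalized counts in WT replicates 1, 2 and 3, and 8488, 8840.5 and 8420.1 in the Zmiz1-KO-labelled libraries. All 3 WT libraries lay above all 3 Zmiz1-KO-labelled ones. The group means were 9453 ± 136 (SD, n = 3) and 8583 ± 226 (SD, n = 3), a log2 fold change of -0.14 (SE 0.037, 95% interval -0.22 to -0.06) or -9.22% (-14.1 to -4.11). Its limma p was 0.00171, rank 176 of all tested genes, and its adjusted p was 0.154.

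Scn3a had 3181, 3494 and 3179 normalized counts in WT, and 2937, 3014 and 2889.8 in the Zmiz1-KO-labelled libraries. WT replicate 2 stood above the other WT libraries, and again no library of 1 group reached the other. Means were 3284 ± 181 and 2947 ± 62.7 (SD, n = 3), a log2 fold change of -0.16 (SE 0.048, 95% interval -0.26 to -0.05) or -10.2% (-16.3 to -3.66). Its limma p was 0.00497 (rank 356) and its adjusted p 0.218. The exact two-sided permutation p was 0.1 for Scn2a and for Scn3a, the smallest that 3 libraries against 3 can give, and for the other 5 genes it lay between 0.2 and 0.9. These were the 2 of 7 genes whose groups did not overlap, both lower, where 16.3% of all tested genes did not overlap and 8.16% did not overlap and were lower.

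Scn1a, linked in humans to Dravet syndrome, had 2050.2, 1865 and 1793 normalized counts in WT, and 1789.9, 1824 and 1728 in the Zmiz1-KO-labelled libraries. WT replicate 1 was highest, and WT replicate 3 lay within the range of the other group. Its means were 1903 ± 133 and 1781 ± 48.5 (SD, n = 3), a log2 fold change of -0.09 (95% interval -0.21 to 0.03, limma adjusted p = 0.584), which was -0.039 without WT replicate 1.

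Scn8a had 7647, 7951.5 and 7849.8 normalized counts in WT, and 7593, 8361 and 7704 in the Zmiz1-KO-labelled libraries. Replicate 2 labelled Zmiz1-KO was the highest of all, and replicate 1 of that group the lowest. Means were 7816 ± 155 and 7886 ± 415 (SD, n = 3). The log2 fold change of 0.01 (95% interval -0.08 to 0.10, limma adjusted p = 0.953) had a different sign when WT replicate 1 or replicate 2 labelled Zmiz1-KO was left out.

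**Figure D3:**
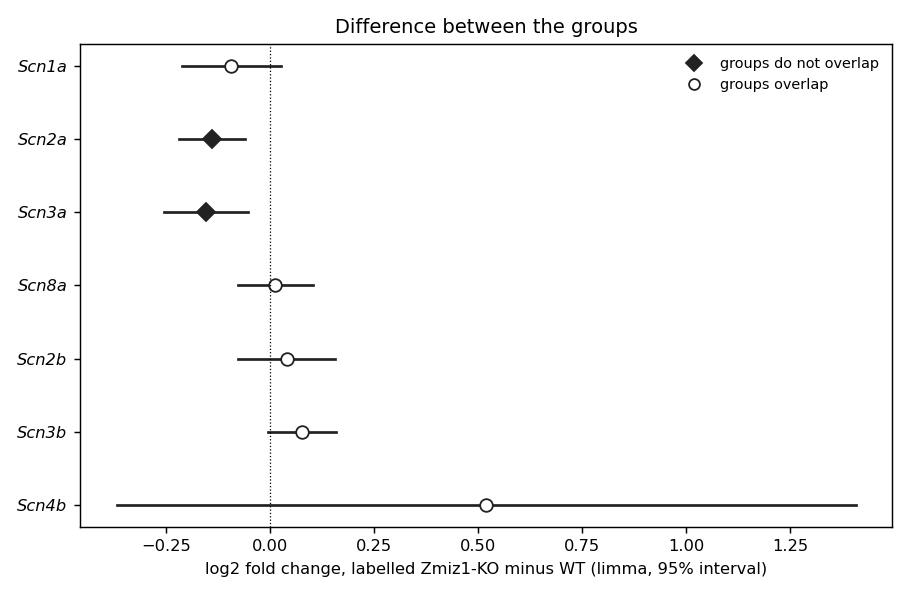
Log2 fold change (labelled Zmiz1-KO minus WT) with its 95% interval from limma for the 7 genes, with filled diamonds where the groups do not overlap. Scn2a (-0.14) and Scn3a (-0.16) have intervals below 0, and the interval of Scn4b (-0.37 to 1.41) is the widest.

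Among the 4 alpha subunits, the shares of Scn2a and Scn8a differed in opposite directions. A share is a gene's level per kilobase divided by the sum over the 4 genes, so the shares of a library add up to the whole and are not independent, and they are described without a test. Scn2a made up 44.4% ± 0.63 (SD, n = 3; 43.7 to 44.9) in WT and 42.9% ± 0.30 (42.6 to 43.2) in the Zmiz1-KO-labelled libraries. Scn8a made up 29.6% ± 0.68 (28.9 to 30.2) and 31.8% ± 0.68 (31.2 to 32.5). For both genes the shares of the groups did not overlap. The level of Scn8a itself did overlap, with 496 ± 9.85 per kilobase in WT and 500 ± 26.3 in the Zmiz1-KO-labelled libraries (SD, n = 3). Its higher share thus goes with a lower sum of the 4 genes, given below, and does not show a higher Scn8a level. Scn3a made up 15.8% ± 0.73 and 15.1% ± 0.21, and Scn1a 10.2% ± 0.66 and 10.2% ± 0.19, each with overlap. The alpha genes summed to 1673 ± 22.3 normalized counts per kilobase in WT and 1571 ± 51.8 in the Zmiz1-KO-labelled libraries. The lowest WT sum, 1648, lay above the highest of the other group, 1630.2. The beta genes Scn2b, Scn3b and Scn4b together went the other way, with 2208 ± 90.5 (2106 to 2278) in WT and 2338 ± 21.0 (2315 to 2356) in the Zmiz1-KO-labelled libraries, again without overlap (SD, n = 3). Each of these 3 beta genes overlapped between groups on its own, and the difference in their sum was not tested. Scn3b made up 77.4 to 79.2% of that sum in WT and 76.1 to 79.4% in the Zmiz1-KO-labelled libraries.

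**Figure D4:**
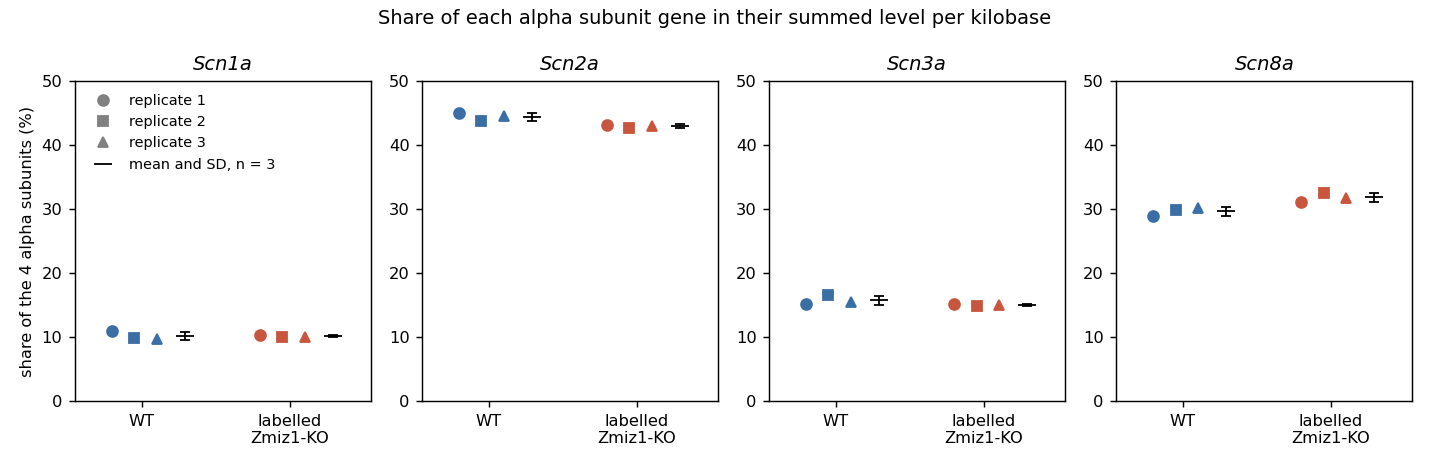
Share of each alpha subunit gene in the summed level per kilobase of the 4 genes, in percent, for each library, with the mean and SD of each group (n = 3). Scn8a lies at 28.9 to 30.2% in WT and at 31.2 to 32.5% in the Zmiz1-KO-labelled libraries, and Scn2a at 43.7 to 44.9% and 42.6 to 43.2%. The Scn8a levels per kilobase, before division by the sum, overlap between groups.

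The genes around Scn3a, Scn2a and Scn1a on chromosome 2 were looked at because Scn3a and Scn2a were lower, after the values could be seen, and are given as values only. Between Scn2a and Scn1a lie the transcription factor gene Csrnp3, at -0.08 on the log2 scale (adjusted p = 0.517 in limma), the glycosyltransferase gene Galnt3, with -0.30 (adjusted p = 0.648), and Ttc21b, a gene of transport within cilia, with -0.20 (adjusted p = 0.425). Of these 3, the groups did not overlap for Ttc21b, where 16.3% of all tested genes did not overlap and 8.16% did not overlap and were lower. Beyond Scn1a, the sodium channel genes Scn9a and Scn7a had -0.20 (adjusted p = 0.505) and 0.27 (adjusted p = 0.880), and on the other side of Scn3a the transporter gene Slc38a11 had 0.17 (adjusted p = 0.900), all with overlap. Of all 15800 tested genes, 7910 had a negative log2 fold change.

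Scn3b had 9108, 9529.95 and 9624 normalized counts in WT, and 10017.5, 9619 and 10164 in the Zmiz1-KO-labelled libraries. Replicates 1 and 3 labelled Zmiz1-KO lay above every WT library, and replicate 2 lay just under WT replicate 3. Its means were 9421 ± 275 and 9934 ± 282 (SD, n = 3), a log2 fold change of 0.08 (95% interval -0.01 to 0.16, limma adjusted p = 0.497).

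Scn2b had 1857, 1968 and 2013 normalized counts in WT, and 2042, 2092 and 1869 in the Zmiz1-KO-labelled libraries. The groups overlapped because replicate 3 labelled Zmiz1-KO was next to the lowest of all. Means were 1946 ± 80.4 and 2001 ± 117 (SD, n = 3), a log2 fold change of 0.04 (95% interval -0.08 to 0.16, limma adjusted p = 0.862), which was 0.0060 without WT replicate 1, 0.0066 or 0.024 without replicate 2 or 1 labelled Zmiz1-KO, 0.064 without WT replicate 3 and 0.088 without replicate 3 labelled Zmiz1-KO.

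Scn4b, known for strong expression in striatal projection neurons, had the widest spread of the 7. It had 194, 357 and 416 normalized counts in WT, and 412, 518 and 399.7 in the Zmiz1-KO-labelled libraries. WT replicate 1 stood far below the other 5 libraries, and WT replicate 3 lay within the range of the other group. Means were 322 ± 115 and 443 ± 64.9 (SD, n = 3), a log2 fold change of 0.52 (95% interval -0.37 to 1.41, limma adjusted p = 0.664), which was 0.19 without WT replicate 1. The 12 listed striatal marker genes summed to 16629.5, 21413 and 22118 in WT, and to 24967, 26757 and 23807.5 in the Zmiz1-KO-labelled libraries. Their sum was also lowest in WT replicate 1, but the sums of the groups did not overlap, whereas the groups of Scn4b did. All 12 had positive log2 fold changes with a median of 0.37, and 1 of them, the phosphodiesterase gene Pde10a (0.37, limma adjusted p = 0.00303), passed the threshold. None of the 12 was at 0, and the lowest mean was 219, of Isl1. The part of striatal tissue in the Scn4b values was not tested.

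**Figure D5:**
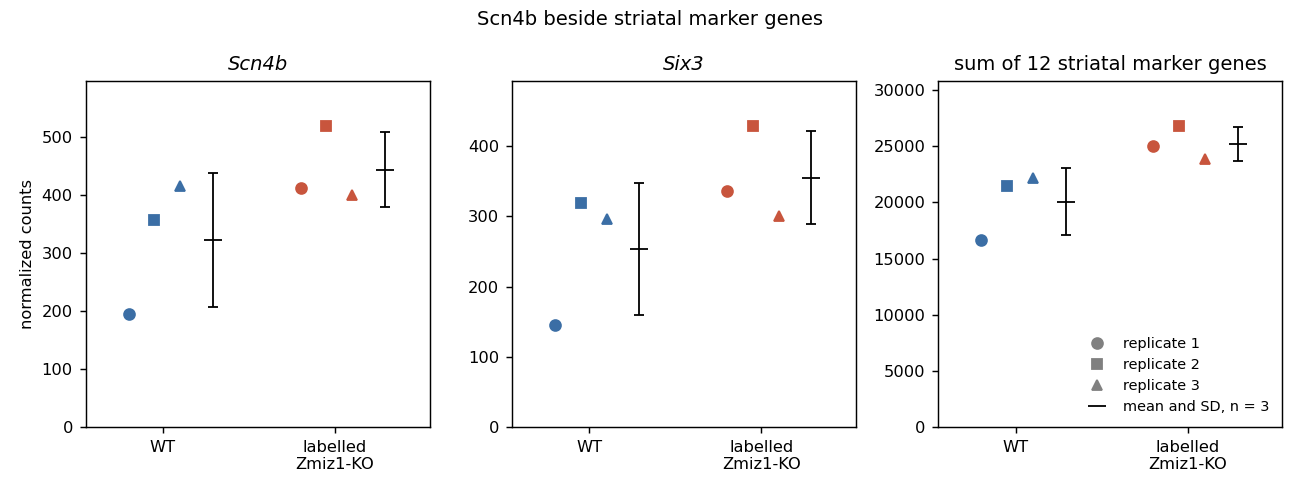
Normalized counts of Scn4b, of the striatal transcription factor gene Six3 and of the summed 12 striatal marker genes in each library, with the mean and SD of each group (n = 3). WT replicate 1 is lowest in all 3 panels, at 194, 145 and 16629.5. Six3 was the nearest of 12781 genes to Scn4b, so it is alike by selection, and it is also part of the sum.

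The genes whose pattern over the 6 libraries was most like that of Scn4b were Six3 and Ankrd63, with root mean square differences of 0.11 and 0.14 on the log2 scale after centring each gene on its own mean, where Scn4b had an SD of 0.48. Six3 had 145, 318 and 296 normalized counts in WT and 335, 428 and 300.1 in the Zmiz1-KO-labelled libraries. For the other 6 genes, whose SDs were 0.051 to 0.10, the nearest of 12781 genes were Tmx3 and Zmat3 for Scn1a, Ireb2 and Kif5b for Scn2a, Osbpl11 and Lrig2 for Scn3a, Cnnm4 and Gyg for Scn8a, Etfa and Vezf1 for Scn2b, and Fam162a and H2afz for Scn3b. Their differences were 0.0060 (Cnnm4) to 0.020 (Lrig2). All these nearest genes, with Six3 and Ankrd63, are given as a description, since the nearest of so many genes is close by selection. Among the 7 themselves, Scn2a and Scn3a were most alike (0.051), followed by Scn8a and Scn2b (0.052) and by Scn1a and Scn2a (0.052).

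Marker genes of cell types were set beside these values. The interneuron genes summed to 19339, 23766 and 21545.5 normalized counts in WT and to 24975, 26967 and 25455.5 in the Zmiz1-KO-labelled libraries, with 12 of 12 tested genes positive, a median log2 fold change of 0.28 and 0 past the threshold. These sums did not overlap between groups either, and the lowest was that of WT replicate 1, as for the striatal marker genes. Whether the interneuron and striatal lists vary separately was not tested. For the 6 excitatory neuron genes the median was -0.10, with 5 negative. Of these 5, Slc17a7 stood at -5.5e-06, and the sums of the 6 genes overlapped between groups. Oligodendrocyte precursor markers summed to 12185 to 12875 in WT and 11274 to 11522 in the Zmiz1-KO-labelled libraries, with 0 of 5 past the threshold. Meningeal fibroblast markers summed to 10594.5 to 13247 and 14183 to 16046, with 0 of 4 past the threshold. Of the 8 astrocyte markers, 1 passed the threshold, the water channel gene Aqp4 (-0.29, limma adjusted p = 0.00499). The list as a whole was mixed, with 2 positive and 6 negative and a median log2 fold change of -0.04. Of these 8 markers, 2 lower and 1 higher had groups that did not overlap, where 16.3% of all tested genes did not overlap. The groups also did not overlap for 5 of 12 interneuron and 3 of 4 meningeal genes, all higher. Among lower genes this held for 1 of 6 excitatory neuron and 3 of 5 oligodendrocyte precursor genes, with no higher gene in these lists. The part of these marker differences in the values of Scn2a, Scn3a or the beta genes was not tested.

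The other sodium channel genes also had 0 of 6 tested past the threshold, with 3 positive and 3 negative and a median log2 fold change of 0.04. Scn9a, the Nav1.7 of pain-sensing neurons, had 653, 623 and 595 normalized counts in WT, and 483, 653 and 506 in the Zmiz1-KO-labelled libraries. The exons of Scn9a overlap the antisense gene Gm13629, whose reads cannot be told apart with an unstranded kit. Scn7a had a mean of 25.9 normalized counts, and Scn4a, of skeletal muscle, 4.33.

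Partners of the channels likewise had no gene past the threshold in limma. Over all tested genes, 11.0% had an unadjusted p under 0.05 and 16.3% had groups that did not overlap. At the axon initial segment and node, 0 of 17 genes passed, with 9 positive and 8 negative and a median log2 fold change of 0.00197. There, 3 genes had an unadjusted p under 0.05, and the groups did not overlap for 4 of the 17 genes. Of those with a mean of at least 100, the largest differences were those of the potassium channel genes Kcnq3 (-0.27, adjusted p = 0.843) and Kcna2 (0.12, adjusted p = 0.637) and the adhesion gene Cntn2 (-0.14, adjusted p = 0.240), and of these 3 the groups did not overlap for Cntn2. Leaving out 1 library moved Kcnq3 between -0.57 (without WT replicate 1) and -0.09 (without WT replicate 3) and Kcna2 between 0.04 and 0.17. Of the proteins that bind or modify the channels, 0 of 15 passed and 0 had an unadjusted p under 0.05. They had 4 positive and 11 negative, a median of -0.01 and 2 genes without overlap. Fgf14, whose protein binds the tail of alpha subunits, had -0.07, Csnk2b, a subunit of casein kinase 2, 0.08 and the ubiquitin ligase gene Nedd4 0.06. Of the regulators of sodium channel RNA, 0 of 12 passed and 2 had an unadjusted p under 0.05, with 3 positive and 9 negative and a median of -0.04. The splicing factor genes Ptbp2 (-0.12, adjusted p = 0.293) and Rbfox3 (-0.09, adjusted p = 0.387) were among 3 of the 12 that did not overlap between groups. The corepressor gene Rcor2 had 0.14 (adjusted p = 0.595).

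Since the alpha subunits change with age, genes known to rise or fall in cortical neurons after birth were set beside them. The shares over all tested genes were 11.0% for an unadjusted p under 0.05 and 16.3% for groups without overlap. Of the genes that rise, 0 of 11 passed in limma and 3 had an unadjusted p under 0.05, with 6 positive and 5 negative and a median log2 fold change of 0.02. Grin2a (-0.15), an NMDA receptor subunit gene, and Nefh (-0.15), of the heavy neurofilament, were the 2 of 11 whose groups did not overlap. Of the genes that fall, 0 of 11 passed and 5 had an unadjusted p under 0.05, with 4 positive and 7 negative and a median of -0.07. The groups did not overlap for 4 of the 11, with 2 lower and 2 higher. Dcx, the doublecortin of migrating neurons, had 23334, 23202 and 23911 normalized counts in WT, and 20643, 21808 and 20704 in the Zmiz1-KO-labelled libraries. The difference was -0.16 on the log2 scale (limma adjusted p = 0.068; 0.015 to 0.418 over all alternatives), without overlap. Nnat, an imprinted gene of immature neurons, had 0.25 (adjusted p = 0.402, without overlap), and the chloride importer gene Slc12a2 -0.17 (adjusted p = 0.306). Without WT replicate 2 the adjusted p of Nnat was 0.013, and over all alternatives it lay between 0.013 and 0.716.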

How the data were processed

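Libraries of total RNA from P7 cortex were made with the TruSeq RNA kit (version 2), which does not keep the strand. The authors aligned reads to mm10 with STAR and used DESeq2 in Illumina BaseSpace to normalize gene counts. The deposited values are that normalized signal, called normalized counts here. Versions and the gene annotation are not given in the sources used here. Low values lay near multiples of a step of 1.83 to 2.11, but whole reads were not recovered, so no count test was run. The sum of a library divided by its step estimated its depth.

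Of 24972 genes, 15800 reached 10 in 3 or more libraries and were tested with limma (version 3.58.1, R 4.3.3; trend and robust) on log2(value + 1), without covariates, two-sided, with Benjamini-Hochberg adjustment and a threshold of 0.05. Fold changes on this scale understate the change of low genes. Single genes also had an exact permutation test over libraries. Levels per kilobase used exons of GENCODE on GRCm38. Promoters came from RefSeq. Named genes are the 7, and per list those past the threshold plus the 3 with the largest difference at a mean of at least 100. For each of the 7, the 2 nearest tested genes with a mean of at least 100 are named. Some genes that this rule picks are not reported here, although counts over the lists include them. The members and lists were chosen with earlier results of these data known. The fit was tested on simulated data. Alternatives were limma-voom, upper-quartile and median-ratio scaling, filters, pseudocounts of 0.1 and 10, fitting without robust estimation, an adjusted p of 0.1, the replicate block, Xist as a covariate, the longest transcript and leaving out each library. Figures were drawn with matplotlib 3.10.9 (Python 3.11.15).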

Additional observations from a re-analysis of the deposited data

How the results depend on the processing

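None of the 7 sodium channel genes passed the threshold under any of the 17 alternatives, and of the 77 fold changes under the 11 alternatives that can move one, 75 kept their direction. The other 6 alternatives change only the genes tested or the test, or repeat the scaling. The exceptions were Scn8a at -0.0039 without WT replicate 1 and at -0.031 without replicate 2 labelled Zmiz1-KO, and leaving out a library gave up to 0.038. The cause was not tested. Scn2a stayed between -0.16 and -0.13 with adjusted p from 0.054 to 0.564, Scn3a between -0.18 and -0.11 with 0.098 to 0.618, and Scn4b between 0.19 and 0.74 with 0.441 to 0.857. Of the 6 gene lists, 1 gene (Dcx) passed at an adjusted p of 0.1, and leaving out a library gave 0 to 2, with 2 without WT replicate 2 (Nnat among them) and 2 without replicate 2 labelled Zmiz1-KO (Dcx among them). A fit with the replicate block called 0 of the 7 and 1 gene of the lists (Dcx), and 168 instead of 65 of all tested genes. The labels do not say that equal numbers share an animal or litter, and deviations of libraries with equal numbers correlated at -0.0051, -0.11 and -0.0063, so the numbers were not used to pair libraries. Counts over all tested genes ranged from 12 (without replicate 3 labelled Zmiz1-KO) to 168 and included 30 without WT replicate 1, 17 without replicate 1 labelled Zmiz1-KO, 151 without replicate 2 labelled Zmiz1-KO, 17 without robust estimation and 106 at an adjusted p of 0.1. Xist was high in 1 library of each group, and with it as a covariate 0 of the 7 passed. With the longest transcript as length, levels per kilobase were 219.6 for Scn1a, 1009 for Scn2a, 326 for Scn3a, 687 for Scn8a and 2332 for Scn3b, and shares were 45.0% for Scn2a and 14.5% for Scn3a, because the lengths themselves differ. With 3 libraries a group, the 95% interval of Scn4b covers differences from -22.5% to 165%, and that of Scn8a from -5.27% to 7.30%.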
